A study of Mus musculus with 6 samples.

Results

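Chemokines are small secreted or membrane-tethered proteins that guide leukocytes, and chemokine receptors are the G-protein-coupled receptors that read them. Genes named *Ccl*, *Cxcl*, *Ccr* or *Cxcr* followed by a number and at most 1 letter, with *Cx3cl1*, *Cx3cr1*, *Xcl1* and *Xcr1*, were taken from the expression table of JNK-deficient mammary tumor cell lines and normal mammary epithelial cells. This gave 57 genes of 37753 with values, namely 39 ligands and 18 receptors, from 59 matching rows. Where a name was on several rows, the row with the highest mean was used. *Ackr* receptors and the ligands *Pf4* and *Ppbp* fall outside this naming rule and are described separately.

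The 6 RNA-seq libraries came from normal mammary epithelial cells in primary culture on collagen I (MEC 1 to 3) and from 3 tumor cell lines (MEKO lines 199, 233 and 336), all on a C57/Bl6J background. The MEC carried WAPCre with intact *Mapk8* and *Mapk9* (Mapk8+/+ Mapk9+/+), the genes of the kinases JNK1 and JNK2, and each MEC library came from pooled glands, taken from between 3 and 5 virgin mice of 10 to 12 weeks. The MEKO lines were Cre+ with both genes deleted, grown from tumors of mice that had carried litters and bore Wap-Cre with loxP-flanked *Mapk8* and *Mapk9*. Each line stands for 1 tumor and was passaged 2 times on collagen, then kept on standard culture dishes. Wap-Cre is active in luminal epithelium and is induced by pregnancy and lactation. Genotype, tumor origin, parity, mouse age, culture surface and time in culture cannot be told apart between the groups. The p-values measure the spread between these libraries only. *Mapk8* was at 19.2 to 25.1 FPKM in MEC and 5.93, 3.12 and 1.37 FPKM in lines 199, 233 and 336, and *Mapk9* at 21.5 to 24.4 FPKM and 7.62, 3.15 and 3.07 FPKM. FPKM counts fragments scaled by transcript length and library size, so it is a level per length.

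Mammary epithelium secretes chemokines in the resting gland and during inflammation. The CXC ligands with a Glu-Leu-Arg motif, here *Cxcl1*, *Cxcl2*, *Cxcl3*, *Cxcl5* and *Cxcl15*, attract neutrophils, the first 4 of them through the receptor encoded by *Cxcr2*. The CC ligands *Ccl2* and *Ccl7* attract monocytes, and *Cxcl12* acts through *Cxcr4*. Transcription of many inflammatory ligands is induced by the factors NF-kappaB and AP1, and JNK phosphorylates the AP1 subunit c-Jun.

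Promoter sequences are shown for genes of the CXC cluster of chromosome 5 (*Cxcl1*, *Cxcl2*, *Cxcl3*, *Cxcl15* and their neighbour *Ppbp*), whose levels differ between the libraries in opposite directions, and for *Cxcl10*, which lies apart on that chromosome. Each is the 250 bases before the gene's start in RefSeq (GRCm38.p6), 5′ to 3′ on the strand of the gene. Capitals mark matches to the NF-kappaB consensus and to the AP1 motif TGANTCA, both searched on both strands. On chromosome 5 the windows are chr5:90890995-90891244 for *Cxcl1*, chr5:90903649-90903898 for *Cxcl2*, chr5:90785851-90786100 for *Cxcl3*, chr5:90794284-90794533 for *Cxcl15* and chr5:90768268-90768517 for *Ppbp*, all on the plus strand, and chr5:92348890-92349139 for *Cxcl10* on the minus strand.
Cxcl1: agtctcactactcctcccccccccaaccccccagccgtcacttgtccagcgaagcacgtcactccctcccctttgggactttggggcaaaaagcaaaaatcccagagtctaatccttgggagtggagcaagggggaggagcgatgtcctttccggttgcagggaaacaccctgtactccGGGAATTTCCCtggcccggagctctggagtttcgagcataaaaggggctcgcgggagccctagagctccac
Cxcl2: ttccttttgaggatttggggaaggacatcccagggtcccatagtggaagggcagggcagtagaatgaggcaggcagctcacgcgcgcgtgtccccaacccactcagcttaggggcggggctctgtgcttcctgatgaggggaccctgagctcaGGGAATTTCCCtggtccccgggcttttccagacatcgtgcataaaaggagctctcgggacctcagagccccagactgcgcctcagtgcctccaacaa
Cxcl3: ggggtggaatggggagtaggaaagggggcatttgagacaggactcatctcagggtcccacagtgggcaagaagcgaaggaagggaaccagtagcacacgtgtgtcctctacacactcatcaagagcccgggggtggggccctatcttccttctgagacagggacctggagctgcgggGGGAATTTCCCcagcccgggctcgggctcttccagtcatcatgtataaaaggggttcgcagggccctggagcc
Cxcl15: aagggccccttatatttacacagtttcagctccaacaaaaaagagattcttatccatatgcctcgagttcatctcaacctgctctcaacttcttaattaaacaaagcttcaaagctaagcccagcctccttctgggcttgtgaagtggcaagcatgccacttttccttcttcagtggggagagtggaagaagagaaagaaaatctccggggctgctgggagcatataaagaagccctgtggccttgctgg
Ppbp: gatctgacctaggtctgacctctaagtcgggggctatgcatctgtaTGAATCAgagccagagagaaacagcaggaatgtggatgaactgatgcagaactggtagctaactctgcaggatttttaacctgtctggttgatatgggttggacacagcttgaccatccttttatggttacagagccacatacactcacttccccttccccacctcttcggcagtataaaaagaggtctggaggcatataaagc
Cxcl10: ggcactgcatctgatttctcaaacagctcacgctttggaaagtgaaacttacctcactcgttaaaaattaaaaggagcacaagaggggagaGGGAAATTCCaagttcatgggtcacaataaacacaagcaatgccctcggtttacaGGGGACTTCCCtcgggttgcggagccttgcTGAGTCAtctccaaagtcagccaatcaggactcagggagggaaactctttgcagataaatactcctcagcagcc

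*Cxcl1*, *Cxcl2* and *Cxcl3* each held the NF-kappaB match GGGAATTTCC, which overlaps the match on the other strand by all but 1 base. Its first base was 71, 97 and 73 bases before the start, respectively. *Cxcl10* held an NF-kappaB match from base 159, an overlapping pair from base 104 and an AP1 match from base 74 before its start. The *Ppbp* window held 1 AP1 match and the *Cxcl15* window held neither motif. Of the 20 chemokine genes tested below, 14 had a promoter in the table. *Cxcl5*, *Ccl2*, *Ccl5*, *Ccl7*, *Cxcl16* and *Cxcl17* had none, so they were not searched for either motif. An NF-kappaB match was in 6 of the 14 (*Ccl9*, *Ccl20*, *Cxcl1*, *Cxcl2*, *Cxcl3* and *Cxcl10*) and in 7.25% of all 32851 promoters. An AP1 match was in 3 of the 14 (*Ccl9*, *Ccl27a* and *Cxcl10*) and in 6.75% of all promoters. Of the 10987 promoters of tested genes, 8.94% held an NF-kappaB match and 4.53% an AP1 match. *Ccl25* and *Ccl27a* have several promoters in the table and count once, with a match in any of them, while the shares are per promoter. A match is a description of the letters and does not show binding.

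Of the 57 genes, 23 were above 1 FPKM in at least 1 library, namely 22 ligands and the receptor gene *Cxcr4*, and 7 ligands were above 1 FPKM in every library. All 23 reached that level in a MEC library, but 18 did so in a tumor line. By library, 22, 19 and 19 were above 1 FPKM in MEC 1 to 3, against 17, 10 and 14 in lines 199, 233 and 336. Another 23 were above 0 without passing 1 FPKM. The remaining 11 were listed at 0 in every library, namely *Ccl1*, *Ccl21a*, *Ccl21b*, *Ccl21c*, *Ccl22*, *Ccl26*, *Ccl27b*, *Xcl1*, *Ccr3*, *Ccr8* and *Cxcr1*. Each tumor line therefore held fewer chemokine genes above this level than any MEC library did. All genes above 1 FPKM were not counted by library, so whether this is particular to chemokine genes was not tested.

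**Figure D1:**
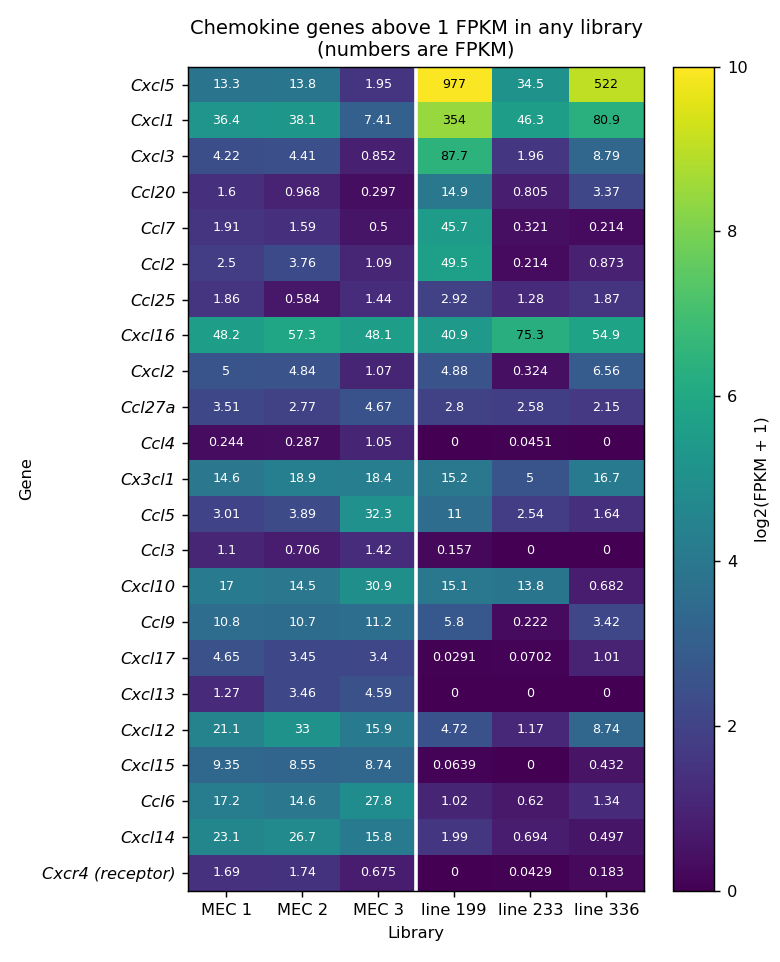
Heat map of the 23 chemokine genes above 1 FPKM in any of the 6 libraries (columns), with colour for log2(FPKM + 1) and the FPKM written in each cell. Ligands are ordered by the MEKO minus MEC difference, from *Cxcl5* at the top to *Cxcl14*, and the only receptor, *Cxcr4*, is the last row.

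The summed level of the 39 ligands was 244, 270.0 and 242 FPKM in MEC 1 to 3. It was 1636 FPKM in line 199, 188 FPKM in line 233 and 717 FPKM in line 336. The MEC sums lay close together, and the lines lay on both sides of them. *Cxcl16* was the highest ligand in every MEC library, with 19.8% to 21.2% of the sum, and in line 233, with 40.0%. *Cxcl5* took that place in line 199 and line 336, with 59.7% and 72.9%. The neutrophil-attracting *Cxcl1*, *Cxcl2*, *Cxcl3* and *Cxcl5* together made up 4.67% to 24.2% of the ligand sum in MEC and 87.0%, 44.2% and 86.3% in lines 199, 233 and 336.

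**Figure D2:**
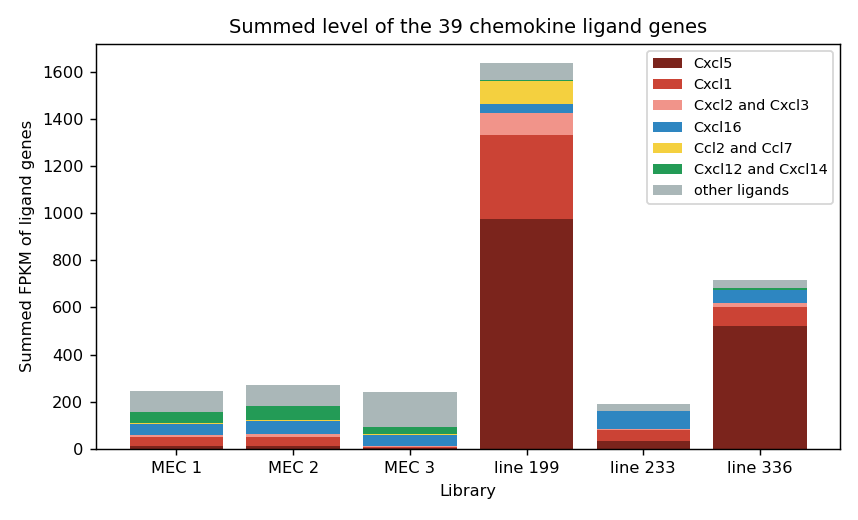
Stacked bars of the summed FPKM of the 39 ligand genes in each library. *Cxcl5* and *Cxcl1* (dark and mid red) fill most of the bars of lines 199 and 336, which reach 1636 and 717 FPKM, while line 233, at 188 FPKM, is below the MEC bars.

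Differences between the groups were tested with limma on log2(FPKM + 1) for the 12461 genes with a mean of at least 1 FPKM over the 6 libraries, and a gene was called with a Benjamini-Hochberg adjusted p under 0.05 and a log2 fold change beyond 0.75. Of the chemokine genes, 20 passed the filter, all of them ligands, and no receptor did. A gene high in 1 group alone could pass the filter through that group. The MEKO means of *Ccl6*, *Cxcl13*, *Cxcl15* and *Cxcl17* were 0.994, 0, 0.165 and 0.370 FPKM, so these genes passed through MEC. *Ccl20*, with a MEC mean of 0.954 FPKM, passed through the lines, and *Ccl7* did not pass without line 199. The counts and the median that follow rest partly on genes that passed in this way. Of the 20, 5 were called lower in MEKO (*Ccl6*, *Cxcl13*, *Cxcl14*, *Cxcl15* and *Cxcl17*), beside 7.26% of all tested genes. None was called higher in this limma fit, beside 2.64% of all tested genes. The count of lower genes was 3 without MEC 2 or without MEC 3. The 3 lines lay below all MEC libraries for 7 of the 20, beside 18.7% of all genes, and above them for 2 of the 20, beside 18.5%. The median log2 fold change was -0.50 over the 20 genes and 0.01 over all genes. Fold changes on this scale understate the change of low genes.

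*Cxcl5*, which encodes a neutrophil attractant of epithelial cells (chr5:90759360-90761624), was at 13.3, 13.8 and 1.95 FPKM in MEC 1 to 3. It was at 977, 34.5 and 522 FPKM in lines 199, 233 and 336. Every line was above every MEC library, but the spread between lines was wide and the gene was not called (log2 fold change 4.94, SE 1.31, limma adjusted p = 0.0638, and exact permutation p = 0.1, two-sided, the smallest that 3 against 3 libraries allow). It was called without line 233, with a log2 fold change of 6.39 and a limma adjusted p of 0.0142. In order of FPKM among all entries, *Cxcl5* was 59th in line 199, 159th in line 336 and 2646th in line 233, against 5603rd to 11202nd in MEC.

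*Cxcl1*, an acute neutrophil attractant (chr5:90891241-90893115), was at 36.4, 38.1 and 7.41 FPKM in MEC and 354, 46.3 and 80.9 FPKM in lines 199, 233 and 336. The lines again lay above all MEC libraries, line 233 by little, and the gene was not called (log2 fold change 2.27, SE 0.90, limma adjusted p = 0.164). *Cxcl3*, a near relative (chr5:90786103-90789600), was at 4.22, 4.41 and 0.852 FPKM in MEC and 87.7, 1.96 and 8.79 FPKM in the lines. Line 233 was within the MEC range, and the groups overlapped (log2 fold change 1.87, SE 1.21, limma adjusted p = 0.355). The log2 fold change of *Cxcl3* was 0.53 without line 199 and 2.98 without line 233, and that of *Cxcl1* was 1.43 without line 199 and 1.54 without MEC 3, with no call in these settings. *Cxcl2* ranged from 1.07 to 5.00 FPKM in MEC and from 0.324 to 6.56 FPKM in the lines, with no call (log2 fold change -0.10, limma adjusted p = 0.948). Of the 50-base stretches of *Cxcl2*, 5.84% also occur in *Cxcl3*, and of those of *Cxcl3*, 4.24% occur in *Cxcl2* or in other genes, so a small part of their reads cannot be told apart. In each of *Cxcl1*, *Cxcl2*, *Cxcl3* and *Cxcl5*, MEC 3 was the lowest MEC library.

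*Cxcl15*, the remaining Glu-Leu-Arg ligand under the naming rule (chr5:90794534-90803067), went the other way. It was at 9.35, 8.55 and 8.74 FPKM in MEC and 0.0639, 0 and 0.432 FPKM in lines 199, 233 and 336. The MEC libraries differed little and the groups lay far apart (log2 fold change -3.10, SE 0.22, limma adjusted p = 0.00157). This gene lies between *Cxcl3* and *Cxcl1*, both of which were far above the MEC range in line 199.

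Of the chemokines outside the naming rule, *Ppbp* and *Pf4* lie beside *Cxcl5* in the same cluster and are best known from platelets. *Ppbp* was at 10.2, 27.9 and 0.645 FPKM in MEC and 1262, 11.6 and 32.3 FPKM in the lines. Line 199 stood far above all others, line 233 was within the MEC range, and the gene was not called (limma adjusted p = 0.295). *Pf4* was called lower, at 6.71, 9.73 and 3.83 FPKM in MEC against 0.385, 0 and 0.0520 FPKM in the lines (log2 fold change -2.70, SE 0.34, limma adjusted p = 0.00803). Along the cluster, *Cxcl5*, *Ppbp*, *Pf4*, *Cxcl3*, *Cxcl15*, *Cxcl1* and *Cxcl2* were thus not of 1 direction in line 199, with 4 genes above the MEC range, *Pf4* and *Cxcl15* below it and *Cxcl2* within it. Of the 4 genes tested in that list outside the naming rule, *Pf4* was the only one called. Of all tested genes, 7.26% were called lower and 2.64% higher. *Ccrl2* was at 3.17 to 4.20 FPKM in MEC and 1.07, 1.67 and 2.55 FPKM in the lines. All lines lay below MEC for it, without a call (limma adjusted p = 0.101). The atypical receptor *Ackr3*, which scavenges the *Cxcl12* product, was at 2.32 to 2.78 FPKM in MEC and 1.61 to 3.30 FPKM in the lines.

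**Figure D3:**
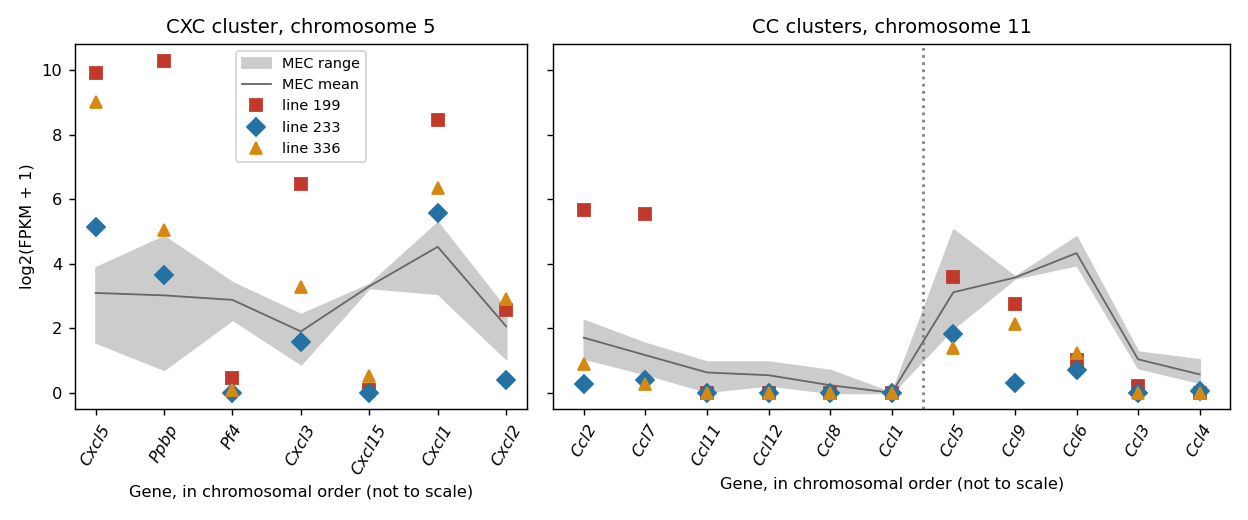
Levels of neighbouring chemokine genes, as log2(FPKM + 1), in chromosomal order for the CXC cluster of chromosome 5 (left) and the 2 CC clusters of chromosome 11 (right, divided by a dotted line). The grey band is the range of the 3 MEC libraries and symbols are the tumor lines; line 199 is above the band at *Cxcl5*, *Ppbp*, *Cxcl3*, *Cxcl1*, *Ccl2* and *Ccl7* and below it at *Pf4*, *Cxcl15*, *Ccl11*, *Ccl12*, *Ccl9*, *Ccl6*, *Ccl3* and *Ccl4*.

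The CC ligands of chromosome 11 differed between the lines. *Ccl2*, the main monocyte attractant (chr11:82035571-82037453), was at 2.50, 3.76 and 1.09 FPKM in MEC and 49.5, 0.214 and 0.873 FPKM in lines 199, 233 and 336. *Ccl7*, its neighbour (chr11:82045712-82047525), was at 1.91, 1.59 and 0.500 FPKM and 45.7, 0.321 and 0.214 FPKM. Both were far above MEC in line 199 and below every MEC library in lines 233 and 336. Neither was called (limma adjusted p = 0.814 and 0.705), and the log2 fold change of *Ccl2* went from 0.57 to -1.11 without line 199. Line 199 was also the library with the highest sum of 8 fibroblast markers, 1111 FPKM against 118 to 207 FPKM in MEC and 2.43 and 4.23 FPKM in lines 233 and 336, and the part of this in the *Ccl2* and *Ccl7* values was not tested. The collagen genes *Col1a1* and *Col1a2* made up most of that sum, at 600.0 and 408 FPKM in line 199. Other genes of the list lay below every MEC library in line 199, with *Dcn* at 0.311 against 3.29 to 6.62 FPKM (called lower), *Lum* at 0.0264 against 0.507 to 1.28 FPKM and *Thy1* at 11.1 against 14.3 to 19.2 FPKM.

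*Ccl6*, a myeloid CC ligand of rodents (chr11:83587882-83593087), was at 17.2, 14.6 and 27.8 FPKM in MEC and 1.02, 0.620 and 1.34 FPKM in the lines. It was called lower in MEKO (log2 fold change -3.35, SE 0.28, limma adjusted p = 0.00243) and in all 13 alternative settings. *Ccl9*, the neighbouring myeloid ligand (chr11:83572919-83578636), was at 10.8, 10.7 and 11.2 FPKM in MEC and 5.80, 0.222 and 3.42 FPKM in the lines. All lines lay below MEC, to unequal extents, and the gene was not called (log2 fold change -1.84, SE 0.61, limma adjusted p = 0.112), except without line 199 (limma adjusted p = 0.0381) and with sample weights. *Ccl5*, a T cell and monocyte attractant (chr11:83525778-83530518), was at 3.01, 3.89 and 32.3 FPKM in MEC and 11.0, 2.54 and 1.64 FPKM in the lines. MEC 3 stood apart for this gene, and the log2 fold change went from -0.85 to 0.12 without it, with no call in either case (limma adjusted p = 0.586 and 0.938). *Ccl3* and *Ccl4*, at most 1.42 and 1.05 FPKM in MEC and 0.157 and 0.0451 FPKM in the lines, did not pass the filter.

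*Cxcl14*, an epithelial chemokine of skin and gland (chr13:56288643-56296551), was at 23.1, 26.7 and 15.8 FPKM in MEC and 1.99, 0.694 and 0.497 FPKM in lines 199, 233 and 336. It fell in every line (log2 fold change -3.51, SE 0.33, limma adjusted p = 0.00310). *Cxcl17*, a mucosal chemokine (chr7:25400053-25412886), was at 4.65, 3.45 and 3.40 FPKM in MEC and 0.0291, 0.0702 and 1.01 FPKM in the lines. It was called lower as well (log2 fold change -1.88, SE 0.33, limma adjusted p = 0.0204), but not without MEC 1, MEC 2 or MEC 3 (limma adjusted p = 0.107, 0.0846 and 0.0730). *Cxcl13*, the B cell attractant (chr5:95956951-95961068), was at 1.27, 3.46 and 4.59 FPKM in MEC and listed at 0 in every line, so no fold is given. Its call (limma adjusted p = 0.0270) was lost without MEC 2, line 233 or line 336 (limma adjusted p = 0.116, 0.0621 and 0.0606), with quantile normalization (limma adjusted p = 0.0538) and with sample weights (limma adjusted p = 0.146). It held in 6 of the 11 alternatives that gave a value.

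Macrophage markers were also lower in the lines, with exceptions. The 8 macrophage markers summed to 119 to 149 FPKM in MEC and 7.46, 11.6 and 62.2 FPKM in lines 199, 233 and 336. *C1qa*, *C1qb* and *Adgre1* (*Emr1* in the table) were listed at 0 in every line, and *Lyz2* was at 16.5 to 32.9 FPKM in MEC and at most 0.0182 FPKM in the lines. *Cd14* made up most of the sum, and *Cd68* was at 3.46 to 6.59 FPKM in MEC and 0.771, 2.73 and 23.5 FPKM in lines 199, 233 and 336, so line 336 was above MEC for it. *Csf1r* was at 1.46 to 1.95 FPKM in MEC and 0.152, 0.333 and 1.41 FPKM in the lines, with no call. Of the 8 markers, 6 passed the filter and 4 were called lower, beside 7.26% of all tested genes. The 5 leukocyte markers summed to 6.55 to 12.1 FPKM in MEC and 0.131 to 0.475 FPKM in the lines, with *Tyrobp* and *Cd52* at 0 in each line. The part of these cells in the levels of *Ccl6*, *Ccl9*, *Cxcl13*, *Pf4* and the receptors was not tested, and in bulk samples fewer cells of a type and less RNA per cell cannot be told apart. Epithelial markers differed too. The 5 luminal markers summed to 5308 to 8869 FPKM in MEC and 789 to 1962 FPKM in the lines, and the 5 basal markers to 1466 to 2732 FPKM in MEC and 2244, 10.7 and 54.1 FPKM in lines 199, 233 and 336. The endothelial sum was 16.9 and 19.7 FPKM in MEC 1 and MEC 2, 2.13 FPKM in MEC 3 and at most 2.01 FPKM in the lines, and lymphocyte markers summed to at most 0.200 FPKM in any library. The 4 neutrophil markers summed to 1.57 to 4.27 FPKM in MEC and 18.6, 2.94 and 24.5 FPKM in lines 199, 233 and 336, and none was called. *S100a8* made up most of that sum in each line, at 13.2, 2.02 and 24.0 FPKM. *Ly6g* was at 0.569 FPKM in line 199 and 0 in lines 233 and 336, and *Csf3r* at most 0.00708 FPKM in the lines.

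**Figure D4:**
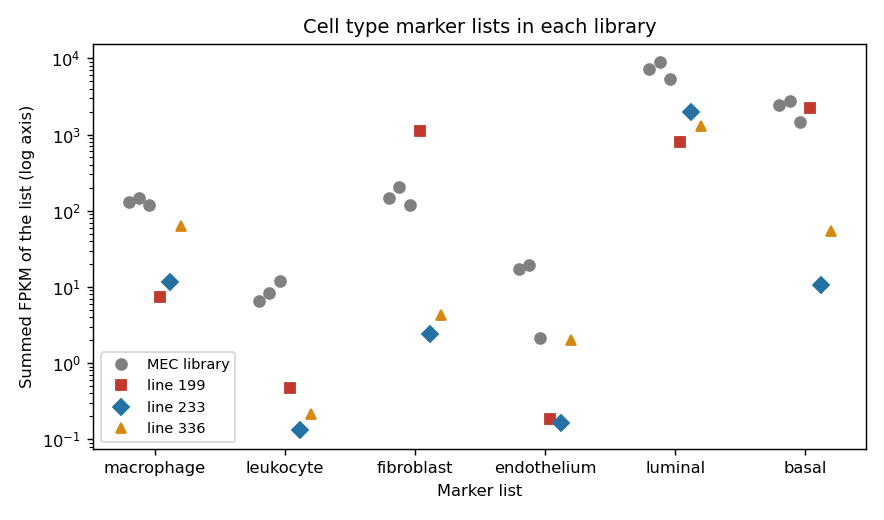
Summed FPKM of 6 cell type marker lists in each library, on a log axis, with MEC libraries as grey circles and the tumor lines as coloured symbols. The summed macrophage and leukocyte lists are lower in all 3 lines than in MEC, and line 199 has the highest sum of the fibroblast list, 1111 FPKM, most of it from *Col1a1* and *Col1a2*.

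*Cxcl12*, the homeostatic ligand of *Cxcr4* (chr6:117168535-117181367), was at 21.1, 33.0 and 15.9 FPKM in MEC and 4.72, 1.17 and 8.74 FPKM in the lines. All lines lay below MEC, but the call was missed (log2 fold change -2.24, SE 0.57, limma adjusted p = 0.0571). It was called without line 336 (limma adjusted p = 0.0400) and with sample weights (limma adjusted p = 0.0200). *Cxcr4* itself (chr1:128588199-128592293) was at 1.69, 1.74 and 0.675 FPKM in MEC and 0, 0.0429 and 0.183 FPKM in the lines. It did not pass the filter, and the libraries did not overlap (exact permutation p = 0.1, two-sided). Ligand and receptor of this pair were thus both lower in every line than in every MEC library, as were 18.7% of all tested genes.

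*Cxcl16*, a membrane-tethered ligand that also takes up oxidized lipoproteins (chr11:70453983-70459984), was at 48.2, 57.3 and 48.1 FPKM in MEC and 40.9, 75.3 and 54.9 FPKM in the lines. The lines lay on both sides of MEC, with a log2 fold change of 0.11 (SE 0.24, limma adjusted p = 0.783) that went to -0.11 without line 233. *Cx3cl1*, the other membrane-tethered ligand (chr8:94772009-94782427), was at 14.6, 18.9 and 18.4 FPKM in MEC and 15.2, 5.00 and 16.7 FPKM in the lines. Only line 233 was below the MEC range, and the gene was not called (log2 fold change -0.60, SE 0.43, limma adjusted p = 0.394, and -0.10 on the log2 scale without line 233). *Cxcl10*, an interferon-induced ligand (chr5:92346638-92348889), was at 17.0, 14.5 and 30.9 FPKM in MEC and 15.1, 13.8 and 0.682 FPKM in the lines. Line 336 was far below the rest, and the group test missed the threshold (log2 fold change -1.49, SE 0.89, limma adjusted p = 0.320). Without line 336 the log2 fold change was -0.42. *Cxcl16*, *Cxcl10*, *Ccl25* and *Ccl27a* overlap a gene on the other strand (*Zmynd15*, *Art3*, *Elavl1* and *Il11ra1*), and 45.0% of the 50-base stretches of *Ccl27a* also occur in other genes, so these values are uncertain to that extent. *Ccl25* and *Ccl27a* stayed between 0.584 and 4.67 FPKM in all libraries, with no call.

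The receptors were low in all libraries. The 18 receptor genes summed to 2.45 to 3.29 FPKM in MEC and 1.29, 0.631 and 0.512 FPKM in lines 199, 233 and 336. Apart from *Cxcr4*, none passed 0.995 FPKM, the level of *Ccr1* in MEC 3, and 14 of the 18 were above 0 without passing 1 FPKM. *Cxcr2* and *Ccr1* were chosen after their values were seen. *Cxcr2*, the receptor for the neutrophil-attracting ligands, was at most 0.0954 FPKM in MEC and at 0.696, 0.122 and 0.0553 FPKM in lines 199, 233 and 336. *Ccr1* was at 0.299 to 0.995 FPKM in MEC and at most 0.188 FPKM in the lines. At such levels FPKM is least precise.

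Each line was also set against the 3 MEC libraries by itself, without a test. A gene was counted where the line lay outside all MEC values and more than 1 from the MEC mean on the log2(FPKM + 1) scale. In line 199, 6 of the 20 chemokine genes were higher (*Ccl2*, *Ccl7*, *Ccl20*, *Cxcl1*, *Cxcl3* and *Cxcl5*), beside 7.89% of all genes, and 6 were lower, beside 12.3%. In line 233, 2 were higher (*Cxcl1* and *Cxcl5*), beside 6.36%, and 11 were lower, beside 13.8%. In line 336, 4 were higher (*Ccl20*, *Cxcl1*, *Cxcl3* and *Cxcl5*), beside 6.79%, and 9 were lower, beside 14.4%. The lower genes of every line included *Ccl6*, *Cxcl12*, *Cxcl13*, *Cxcl14*, *Cxcl15* and *Cxcl17*. Lines 233 and 336 added *Ccl5* and *Ccl9*, line 233 added *Ccl2*, *Cx3cl1* and *Cxcl2*, and line 336 added *Cxcl10*. For *Ccl5* the MEC mean was raised by MEC 3, at 32.3 FPKM against 3.01 and 3.89 FPKM in MEC 1 and MEC 2. The lines share the MEC libraries, so these lists are not independent of each other. MEC 3 was the library with the lowest *Cxcl1* and *Cxcl5*. Without it, 1 gene was higher in line 233, beside 6.27% of all genes, and 2 in line 336, beside 7.03%. *Ccl20*, which attracts immature dendritic cells and was chosen after its values were seen, was at 0.297 to 1.60 FPKM in MEC and 14.9, 0.805 and 3.37 FPKM in lines 199, 233 and 336.

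**Figure D5:**
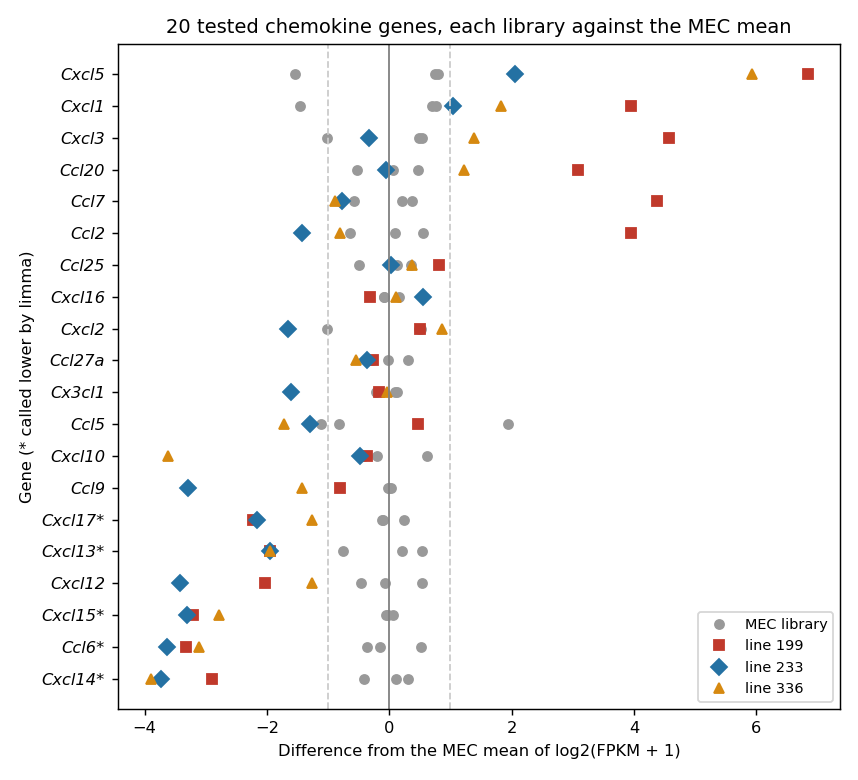
Difference of each library from the MEC mean of log2(FPKM + 1) for the 20 tested chemokine genes, with the MEC libraries in grey, the lines in colour and dashed lines at a difference of 1. *Cxcl5* and *Cxcl1* lie above MEC in all 3 lines, the starred genes were called lower, and *Ccl2* and *Ccl7* lie above MEC in line 199 alone.

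Genes that act with chemokines were read from fixed lists. Of the inducers of chemokine transcription, 23 of 24 passed the filter, 4 were called lower, beside 7.26% of all tested genes, and none higher. *Tnf*, an inducing cytokine, was at 7.30, 7.06 and 2.71 FPKM in MEC and listed at 0 in every line (limma adjusted p = 0.00989). *Jun*, which encodes c-Jun, was at 53.1 to 60.3 FPKM in MEC and 8.15 to 10.5 FPKM in the lines (log2 fold change -2.53, SE 0.15, limma adjusted p = 9.27e-04). *Fos*, its AP1 partner, and *Tlr2*, a receptor for bacterial lipoproteins, were called lower with log2 fold changes of -2.19 and -0.99. *Nfkbia* and *Nfkbiz*, chosen after their values were seen, were not called. *Nfkbia* was at 32.3 to 53.1 FPKM in MEC and 96.3, 13.0 and 19.9 FPKM in lines 199, 233 and 336. *Nfkbiz* was at 15.0 to 15.5 FPKM in MEC and 41.4, 6.52 and 12.2 FPKM in the lines. The part of the inducers in the *Cxcl5* and *Cxcl1* levels was not tested. *Il1a*, an epithelial alarm cytokine chosen after its values were seen, was at 2.67, 1.65 and 1.54 FPKM in MEC and 462, 18.8 and 3.24 FPKM in lines 199, 233 and 336, and was not called (log2 fold change 3.54, SE 1.59, limma adjusted p = 0.205).

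In receptor signaling, 16 of 24 genes passed the filter and 2 were called, both lower, beside the same 7.26%. *Arrb1*, whose product desensitizes the receptors, had a log2 fold change of -1.90 and *Elmo1*, which links them to Rac, of -1.64. Of the proteases that cut or shed chemokines, 4 of 5 passed the filter and 2 were called lower, beside 7.26% of all tested genes. *Mmp9* was at 32.8 to 106 FPKM in MEC and 4.07, 0.00826 and 0.0609 FPKM in the lines. *Adam10*, a sheddase of *Cxcl16* and *Cx3cl1* products, had a log2 fold change of -0.89. *Adam17* and *Mmp2* were not called. *Adam17* was at 23.4 to 26.6 FPKM in MEC and 33.5, 29.2 and 29.3 FPKM in lines 199, 233 and 336. *Mmp2* was at 7.19 to 12.7 FPKM in MEC and 26.4, 0.280 and 0.416 FPKM in the lines. Of the 12 genes for heparan sulfate, which holds chemokines at the cell surface, all passed the filter and 1 was called, *Sdc4*, lower with a log2 fold change of -1.30. That share is near the 7.26% of all genes called lower. None of these lists had a gene called higher, beside the 2.64% of all genes that were.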

How the data were processed

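RNA-seq libraries of 3 MEC preparations and 3 MEKO tumor lines were analysed, grouped by their titles. The authors trimmed paired-end reads, mapped the trimmed reads to mm10 (Bowtie2, TopHat2 2.0.14) and gave each gene an FPKM value with Cufflinks 2.2.1, and the deposited table of FPKM holds 37755 entries, 2 without values. The annotation and the use of strand are not given in the sources used here. Read numbers are unknown, so no counting interval was computed and no count test was run. Ratios of the smallest values put the depth at 0.92 to 1.30 times that of MEC 1, and low genes are the least precise.

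log2(FPKM + 1) was tested with limma 3.58.1 in R 4.3.3, with a mean-variance trend, after a filter at a mean of 1 FPKM, and adjusted over 12461 genes. The script was tested on simulated data. Positions are from GENCODE M21 (GRCm38), with 56 of 57 genes matched, and promoters from RefSeq. The values of 1 gene are not reported here. Named with values in each library were called genes, genes with a group mean of at least 10 FPKM, receptors at 1 FPKM or more, and the 3 genes furthest above and below MEC in each line. Up to 4 called genes were named per pathway list. The genes and lists were chosen with earlier results of these data known. The alternatives were a pseudocount of 0.1, no filter, a filter at 5 FPKM, quantile and upper-quartile scaling, no trend, sample weights, no fold-change threshold, a line difference beyond 2 and each library left out.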

Additional observations from a re-analysis of the deposited data

How the results depend on the processing

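The count of chemokine genes called lower, 5, was 2 with a filter at a mean of 5 FPKM and 3 to 6 with a library left out. The count called higher, 0, was 0 to 1 with a library left out, the 1 being *Cxcl5* without line 233. Over all genes, 905 were called lower and 329 higher. With a library left out these were 211 to 1398 and 48 to 568, fewest without MEC 1. They were 1378 and 600 with sample weights, and 501 were lower with the filter at 5 FPKM. Counts for single lines with a difference beyond 2 were 1 higher and 6 lower in line 233, beside 2.09% and 5.63% of all genes. In line 336 they were 1 higher and 4 lower, beside 2.06% and 5.79%. With a MEC library left out, an alternative chosen after seeing the data, line 233 had 1 to 2 higher genes and line 336 had 2 to 5. The shares of all genes were then 6.27% to 6.74% and 6.97% to 7.05%. The other counts stayed within 1.5 times.

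For 16 named genes, 185 of 203 alternative values kept their direction and side of the threshold, 8 lost the call, 5 gained it and 5 changed sign. The sign changed for *Ccl2* with sample weights (-0.40) and without line 199 (-1.11), for *Ccl7* with sample weights (-0.23), for *Ccl5* without MEC 3 (0.12) and for *Cxcl16* without line 233 (-0.11). With a library left out, the log2 fold change ranged from -1.11 to 1.58 for *Ccl2*, from -1.51 to 0.12 for *Ccl5* and from -0.11 to 0.33 for *Cxcl16*. None of these 4 genes was called in any setting. The cause was not tested. *Ccl7* without line 199, *Cxcl13* without MEC 3, and *Cxcl13*, *Cxcl15* and *Cxcl17* with the filter at 5 FPKM did not pass the filter and gave no value. No paired analysis was possible because the labels of the groups share no replicate number. The median log2 fold change of all tested genes was at most 0.10 in any setting. Low genes, receptors above all, are limited by depth, which is unknown.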
